A study of Mus musculus with 13 samples.

Results

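The genes described here are 7 histone deacetylases, Hdac1, Hdac2, Hdac3, Hdac4, Hdac5, Hdac9 and Hdac11, and 3 demethylases of lysine 4 of histone H3, Kdm1a, Kdm5a and Kdm5b. They are a list of names, drawn up with earlier results of these data known, and are 10 of the 26264 genes in the deposited table. All 10 were measured in every library, from 193 normalized counts upwards, and all 10 passed the filter on low values. The libraries are total RNA from tissue punches of the ventral tegmental area (VTA), the midbrain region that holds the dopamine neurons projecting to striatum and cortex, taken from mice of strain C57BlJ/6. A virus encoding the histone methyltransferase Setd7, or green fluorescent protein (GFP) as its control, was given on postnatal day 14, and some mice went through social defeat, a stress by aggressive encounters, as adults. The 4 groups were GFP without defeat (GFP control, n = 3, 1 female), GFP with defeat (GFP defeat, n = 4, 2 female), Setd7 without defeat (Setd7 control, n = 4, 2 female) and Setd7 with defeat (Setd7 defeat, n = 2, 1 female). Every group, the controls included, carried a virus. The promoter of the virus and the cells it reached are not given in the sources used here. The labels do not say that each library is a separate animal, so p-values measure the spread between these samples, and the column of Setd7 defeat replicate 1 carries a longer number than its title, so it may hold more than 1 animal.

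Histone deacetylases take acetyl groups off lysines of histone tails, which tightens chromatin and lowers transcription. Class I enzymes (Hdac1, Hdac2, Hdac3) are the catalytic subunits of the CoREST, NuRD, Sin3 and NCoR complexes. Class IIa enzymes (Hdac4, Hdac5, Hdac9) shuttle between nucleus and cytoplasm with neuronal activity and hold back MEF2 transcription factors, and Hdac11 is the sole class IV enzyme. Kdm1a (LSD1) removes mono- and dimethyl marks from lysine 4 of histone H3 inside the CoREST complex, beside Hdac1 and Hdac2, and the JARID1 enzymes Kdm5a and Kdm5b remove di- and trimethyl marks. Setd7 can place the monomethyl mark on the same lysine.

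Values are normalized counts, that is, reads assigned to a gene divided by a size factor of the library. Libraries held 26.549 to 50.842 mega-reads. The targeted gene Setd7 averaged 13894 ± 565 normalized counts (SD, n = 3) under GFP control and 12673 ± 1317 (SD, n = 4) under GFP defeat. With the Setd7 virus it averaged 102201 ± 59139 (SD, n = 4) without defeat and 107710 ± 21811 (SD, n = 2) after it, with no overlap between the viruses. Without defeat (log2 difference 2.54) Setd7 itself did not pass limma (adjusted p = 0.467) or edgeR (adjusted p = 0.435). After defeat (3.08) it passed neither limma (adjusted p = 0.236) nor edgeR (adjusted p = 0.0844). DESeq2 called it in both (adjusted p = 1.68e-05 and 1.15e-05). In these comparisons, 0 calls by limma or edgeR do not show that a gene was unchanged. The labelled sexes were checked with relatives of Kdm5a and Kdm5b on the sex chromosomes: Y-linked Kdm5d read 0 to 2.01 normalized counts in the 6 female and 837 to 1128 in the 7 male libraries. The X-linked Kdm5c read 5162 to 5533 in females and 3932 to 4234 in males (log2 difference 0.40 ± 0.04 SE, limma adjusted p = 0.000614). All 10 dopamine neuron markers looked for were detected in every library, but Th, the rate-limiting enzyme of dopamine synthesis, was low in 3 libraries, at 3392 and 2508 normalized counts in GFP control replicates 2 and 3, and at 2539 in replicate 1 of GFP defeat, against 9760 to 19110 in the others. Fitted differences of single genes that draw on these 3 libraries are given also without them, except those of Setd7 itself and those between the sexes. This leaves 1 GFP control library, replicate 1, so every such difference from GFP control rests on that library. Medians, intervals and counts of higher and lower genes are given only with them.

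The deacetylases differed widely in level, and Hdac11 stood first. Levels between genes are compared here as normalized counts per kilobase of the longest annotated transcript. Hdac11 had a median of 3975 per kilobase over the 13 libraries (3243 to 4149), followed by the class IIa enzyme Hdac5 at 1555 (1442 to 1737) and the class I enzyme Hdac3 at 977 (903 to 1088). The ranges of these 3 genes did not overlap with each other or with those of the genes below them. Kdm1a at 507, Hdac2 at 487 and Hdac4 at 433 per kilobase followed with ranges that overlapped between neighbours, and then came Kdm5b at 308, Hdac9 at 301 and Kdm5a at 262, again overlapping. Hdac1 was lowest at 130 per kilobase (94.9 to 159), with its highest library below the lowest library of Kdm5a. Its level is uncertain, since its transcript closely matches the processed pseudogenes Gm10093 and AC125456.1, which are not analysed here. When the length of all exons together was used, Hdac11, Hdac5 and Hdac3 kept the first places and Hdac1 the last, while Hdac2 and Kdm1a exchanged places and so did Kdm5a and Kdm5b.

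**Figure D1:**
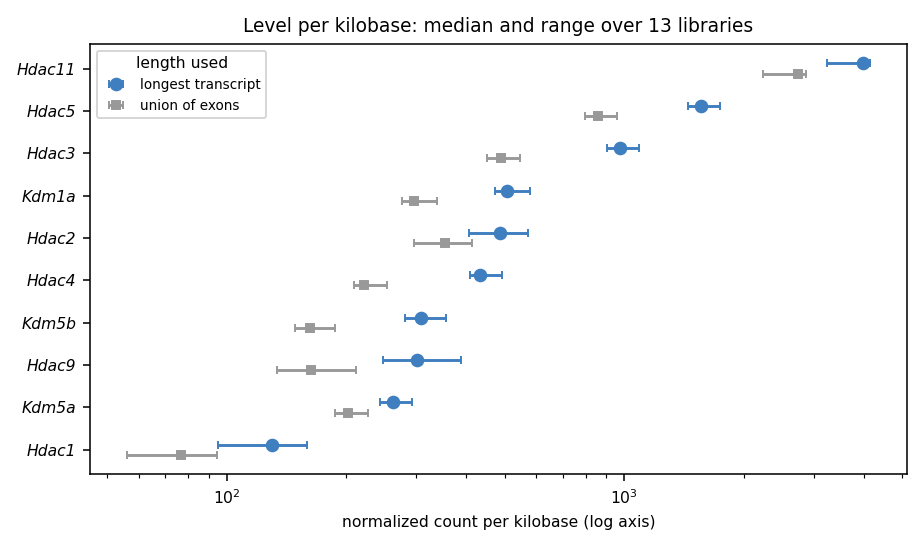
Level of each of the 10 genes in normalized counts per kilobase of the longest transcript, (blue) and of all exons together (grey), on a log axis, with points at the median and bars from the lowest to the highest of 13 libraries. Hdac11 lies highest with a median of 3975 by longest transcript, and Hdac1, whose transcript closely matches processed pseudogenes, lowest with 130.

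The same 10 genes differed in how far libraries of 1 group spread. The residual SD of the fit, on the log2 scale, was 0.0460 for Hdac11. It was smaller than in all but 0.948% of the 12975 tested genes with a mean of at least 100 normalized counts. This SD pools the 4 groups, which differed: the coefficient of variation of Hdac11 was 6.65% in GFP control and 0.821% in Setd7 control. Hdac9 had the largest among the 10, at 0.219, and 76.2% of genes had a smaller one. The median over those genes was 0.143, and besides Hdac9 only Hdac1 exceeded it, at 0.174. Hdac1 rested on 186 to 409 reads per library, so counting alone gives an SD of about 0.0877 on the log2 scale, against 0.0141 for Hdac11 with 7507 to 14733 reads. Promoter windows of 250 bases before to 50 bases after an annotated start were found for 7 of the 10 genes in RefSeq (build GRCm38.p6). Those of the genes with the smallest and the largest residual SD are shown because they also lie far apart in CpG content. Capitals mark CG dinucleotides. The Hdac11 window is chr6:91156565-91156864 on the plus strand and the Hdac9 window, at the first of its 2 listed starts, is chr12:34917046-34917345 on the minus strand.
Hdac11: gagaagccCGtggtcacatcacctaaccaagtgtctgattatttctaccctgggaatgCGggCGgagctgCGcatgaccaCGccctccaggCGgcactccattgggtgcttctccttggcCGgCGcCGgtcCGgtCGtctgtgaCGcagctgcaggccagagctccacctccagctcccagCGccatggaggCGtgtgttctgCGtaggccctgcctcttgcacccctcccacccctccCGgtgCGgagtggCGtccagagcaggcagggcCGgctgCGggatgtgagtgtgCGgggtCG
Hdac9: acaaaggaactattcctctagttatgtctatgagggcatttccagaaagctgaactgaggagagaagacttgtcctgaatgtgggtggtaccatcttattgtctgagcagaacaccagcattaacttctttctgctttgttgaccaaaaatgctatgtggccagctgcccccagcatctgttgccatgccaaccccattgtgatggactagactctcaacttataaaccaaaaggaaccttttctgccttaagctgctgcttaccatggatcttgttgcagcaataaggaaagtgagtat
The Hdac11 window holds 22 CG dinucleotides, more than 76.9% of the 32851 promoter windows in the RefSeq table, with a GC content of 66.7%. The Hdac9 window holds 0 and has a GC content of 44%, and the window at its other start holds 3. Across Hdac2, Hdac4, Hdac5, Kdm1a and Kdm5b the count ran from 17 (Kdm5b) to 36 (Hdac2). The residual SD was 0.0731 for Kdm5b and 0.125 for Hdac2. A link between CpG content and spread was not tested. The GC box letters GGGCGG, searched on both strands, occur in 35.7% of all windows, and the count was 5 in Hdac4, 1 each in Hdac2, Hdac5, Hdac11 and Kdm5b, and 0 in Kdm1a and in both Hdac9 windows. The letters TATAAA, also searched on both strands, occur in 13.6% of windows and were found once among these genes, in the Hdac9 window printed here.

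The first question was what Setd7 overexpression did to these genes in mice without defeat. Hdac11, which removes long-chain fatty acyl groups as well as acetyl groups, read 9789.5, 8978 and 8603 normalized counts in the GFP control libraries. It read 10701, 10573, 10724 and 10781 in Setd7 control. All 4 Setd7 libraries thus lay above all 3 GFP libraries, and they lay close to each other (10695 ± 87.8, SD, n = 4) while the GFP libraries were spread (9123 ± 607, SD, n = 3). The fitted difference was 0.22 ± 0.06 SE on the log2 scale, a 1.17-fold higher level (95% interval 1.07 to 1.27), with unadjusted p = 0.00144 and adjusted p = 0.539 by limma over 17755 genes. Its SE, as in the other comparisons, uses a spread pooled over the 4 groups, not that of the GFP control libraries alone. Hdac11 did not pass the test by limma or by edgeR (adjusted p = 0.568), and DESeq2 called it (adjusted p = 0.0402). Since the groups did not overlap, the same order within each sex follows from that and is no further support. The GFP control libraries were 1 female, at 9789.5, and 2 males, at 8978 and 8603, both low in Th.

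Across the 10 genes in this comparison, limma called 0 at adjusted p under 0.05. It called 0% of all genes there, and so missed Setd7 itself. Of the 10, edgeR called 0 and DESeq2 called 1 (Hdac11; 0.172% of all genes with an adjusted p). At unadjusted p under 0.05 limma listed 1 of the 10, Hdac11, against 8.01% of all genes. Hdac11 was also the 1 gene of the 10 whose groups did not overlap, which was so for 8.26% of all genes. Of the 10, 5 were higher and 5 lower (51.4% of all genes were higher), with log2 differences from -0.10 to 0.22 and a median of -0.01, beside a median of 0.01 over all genes. Kdm1a had the next smallest p, with 1477 ± 20.3 (SD, n = 3) normalized counts in GFP control and 1593 ± 111 (SD, n = 4) in Setd7 control (log2 difference 0.12 ± 0.07 SE, unadjusted p = 0.143, limma adjusted p = 0.717; 0.10 without the 3 libraries low in Th). For all 10 genes the 95% interval of the difference stayed within 1.5-fold in either direction.

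Social defeat in GFP mice was compared against the same 3 GFP control libraries, so its values are not independent of those above. Hdac11 read 11007.5, 10472, 10545.5 and 10377 normalized counts in the GFP defeat libraries. Each was above the 3 GFP control libraries, and the fitted difference was 0.21 ± 0.06 SE on the log2 scale, 1.16-fold (95% interval 1.06 to 1.26), with unadjusted p = 0.00225. By limma the adjusted p was 0.365 and by edgeR 0.383, while DESeq2 called the gene (adjusted p = 0.0348). The class I enzyme Hdac1, a subunit of CoREST, NuRD and Sin3, read 317, 292 and 249 normalized counts in the GFP control libraries. The GFP defeat libraries read 211, 193, 264 and 225. Most defeat libraries were lower, but the groups overlapped, since GFP defeat replicate 3 at 264 lay above GFP control replicate 3 at 249. The fitted difference of Hdac1 was -0.35 ± 0.14 SE on the log2 scale, 0.786-fold (95% interval 0.633 to 0.976), with unadjusted p = 0.0317 and limma adjusted p = 0.499. Leaving out single libraries moved the difference of Hdac1 between -0.45 and -0.21, and without the 3 libraries low in Th it was -0.58. The latter rests on 1 GFP control library, replicate 1, which had the highest Hdac1 of its group, 317. The values of Hdac1 are uncertain, since its transcript matches the processed pseudogene Gm10093 at 99.4% identity over 1444 of its 2038 bases. It also matches the processed pseudogene AC125456.1 at 96.3% over 1450 bases, and neither copy is analysed here.

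In this comparison limma and edgeR called 0 of the 10 genes, and 0% of all genes, at adjusted p under 0.05. DESeq2 called 1, Hdac11, and 0.594% of all genes with an adjusted p. At unadjusted p under 0.05 limma listed 2 of the 10, Hdac11 and Hdac1, against 9.25% of all genes. Groups did not overlap for 3 of the 10, against 9% of all genes: Hdac11 and Kdm1a, higher in every defeat library, and Hdac3, lower in every defeat library. Hdac3, the catalytic subunit of the NCoR complex, read 2115, 2211 and 1986 normalized counts in the GFP control libraries, against 1933, 1981, 1949 and 1854 with defeat. The gap between the highest defeat library of Hdac3 and its lowest control library was small beside the spread of the controls, and its log2 difference was -0.12 (unadjusted p = 0.133; -0.17 without the 3 libraries low in Th). Kdm1a read 1457, 1477 and 1497 in the controls, against 1533, 1565, 1639 and 1633 with defeat, with a log2 difference of 0.12 (unadjusted p = 0.140; 0.11 without the 3 libraries). All 3 class I enzymes had lower fitted levels, by a median of -0.12 on the log2 scale. For Hdac2 the difference was -0.03, and it was 0.06 without the 3 libraries low in Th, so this direction was not kept by all 3. Of the 10 genes, 5 were higher and 5 lower, with a median of 0.02, while 49.6% of all genes were higher.

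**Figure D2:**
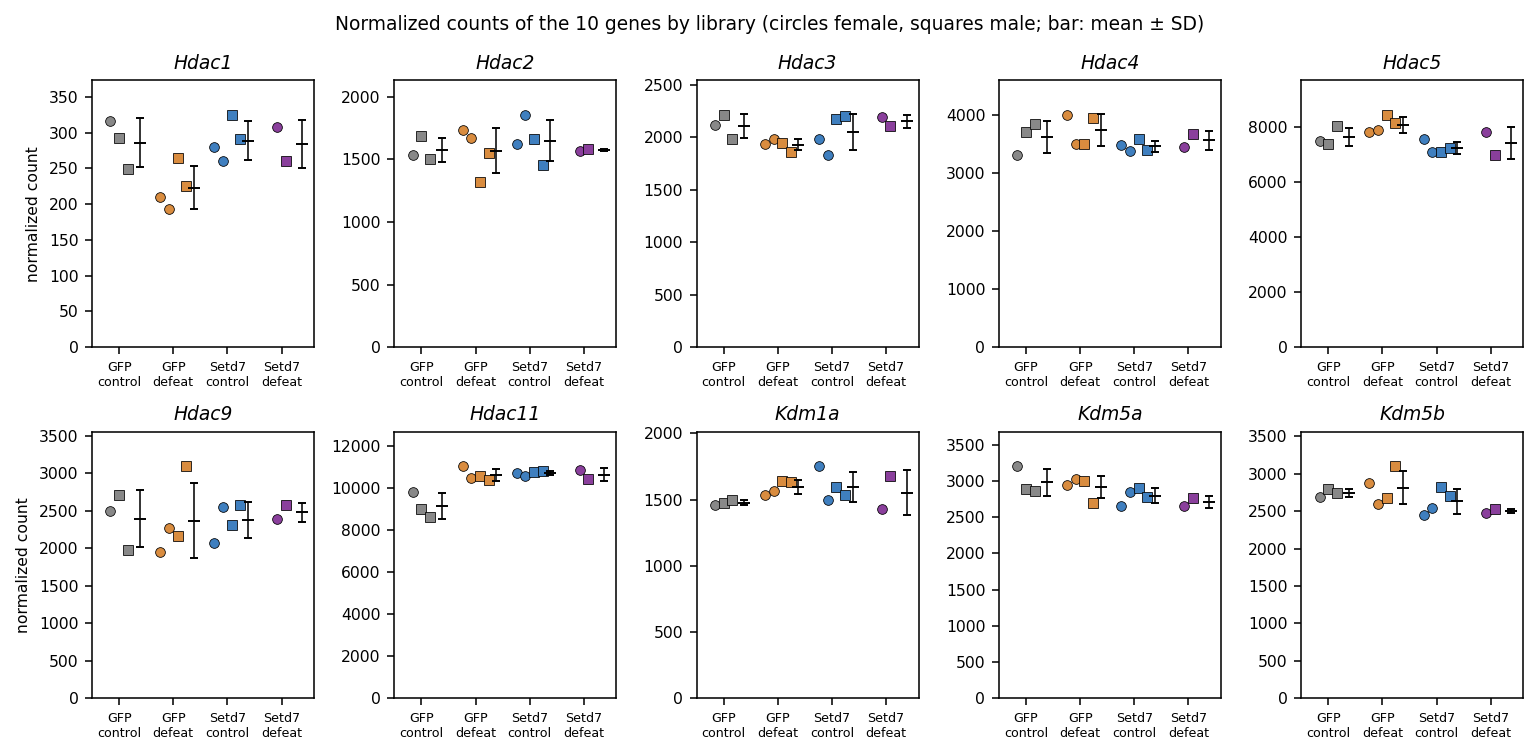
Normalized counts of each of the 10 genes by group, with 1 point per library (circles female, squares male) and bars for the group mean ± SD. For Hdac11 the 3 GFP control libraries, at 8603 to 9789.5, lie below the 10 others, at 10377 to 11007.5, and the groups of most other genes overlap.

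The higher Hdac11 of both comparisons thus rests on 3 low GFP control libraries, and 2 of these stand apart in tissue content. Hdac11 was lowest in GFP control replicates 2 and 3, which were also low in Th and high in Tcf7l2, a transcription factor of thalamic neurons, with 9009 and 9559 normalized counts. GFP control replicate 1 had 1869 of Tcf7l2 and 9760 of Th, and its Hdac11 was still below that of the 10 libraries of the other groups. GFP defeat replicate 1 was as low in Th (2539) but had the highest Hdac11 of all, 11007.5, with Tcf7l2 at 982. GFP defeat replicate 4, with Tcf7l2 at 6575, had 10377, the lowest Hdac11 of its group. In bulk tissue a gene read lower because fewer cells of a type were punched cannot be told apart from less RNA per cell.

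Without the 3 libraries low in Th, which leaves 1 GFP control library that is assumed to vary like the other groups, the Hdac11 difference was 0.13 for Setd7 (unadjusted p = 0.135, limma adjusted p = 0.729) and 0.10 for defeat (unadjusted p = 0.265, limma adjusted p = 0.737). With the mean level of the thalamus markers as a covariate it was 0.22 (unadjusted p = 0.00913) and 0.21 (unadjusted p = 0.00459), and with that of the dopamine neuron markers 0.20 (unadjusted p = 0.0170) and 0.19 (unadjusted p = 0.0119). Leaving out any single library kept it between 0.19 and 0.27 for Setd7 and between 0.18 and 0.26 for defeat. The dopamine neuron markers were higher in 10 of 10 in both comparisons, by medians of 0.99 and 0.85 on the log2 scale. Their summed level was 19662 to 58485 normalized counts in the GFP control libraries and 20652 to 96161 after GFP with defeat, against 56404 to 107780 for Setd7 control and 61379 to 74045 for Setd7 defeat. The thalamus markers were lower in 7 of 7 and 5 of 7, by medians of -0.79 and -0.47, with sums of 15317 to 43814, 13705 to 27677, 13356 to 14195 and 13380 to 15056 in the same order of groups. The oligodendrocyte markers were higher in 10 of 11 in both, by medians of 0.15 and 0.22, with sums of 375520 to 473000, 438730 to 574480, 408300 to 530450 and 509300 to 553790, again in that order. Oligodendrocyte precursor markers were higher in 6 of 6 in both, by medians of 0.14 and 0.24, with sums of 15290 to 17362, 18405 to 19682, 16851 to 19141 and 18675 to 18756. Excitatory neuron markers were higher in 0 of 6 and 3 of 6 (medians -0.51 and 0.00), with sums of 11262 to 22183, 10927 to 17642, 8163 to 16023 and 9702 to 14451. Microglia markers were higher in 8 of 8 and 5 of 8 (medians 0.35 and 0.06), with sums of 9031 to 11877, 9545 to 11281, 9036 to 23234 and 10642 to 14154. Of these markers Gbx2, of the thalamus list, was at 0 in 1 library, and no other was at 0 in any. Limma and edgeR called 0 of them in both comparisons. DESeq2 called 1 excitatory neuron marker for Setd7 and, for defeat, 1 marker each of oligodendrocytes and their precursors. A fit with the oligodendrocyte markers as a covariate was also run, in which both Hdac11 differences stayed positive and limma called 0 genes. The part of the markers in the Hdac11 result was not tested beyond these fits.

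**Figure D3:**
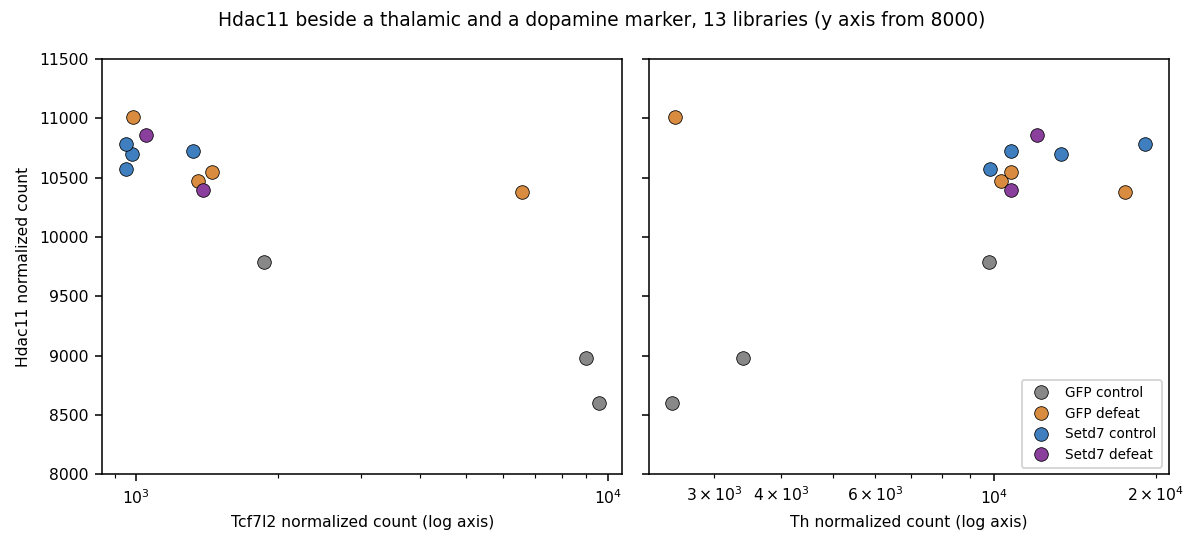
Hdac11 in normalized counts (axis not starting at 0) against the tissue markers Tcf7l2 and Th in normalized counts on log axes, with 1 point per library coloured by group. The 2 lowest Hdac11 values, 8603 and 8978, come from libraries with low Th and high Tcf7l2, while the highest, 11007.5, comes from a library with low Th and low Tcf7l2.

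Setd7 after defeat was compared against the same GFP defeat libraries as above. Differences of opposite sign to those of defeat with GFP are therefore not independent of them. Hdac11 of Setd7 and GFP libraries overlapped after defeat. It read 10855 and 10392 normalized counts in Setd7 defeat, within the range of GFP defeat, and the log2 difference had a 95% interval of -0.13 to 0.14. The demethylase Kdm5b read 2876, 2596, 2680.4 and 3095 in the GFP defeat libraries, against 2478 and 2524 with Setd7. Both Setd7 libraries lay below every GFP library, with a log2 difference of -0.17 ± 0.08 SE, unadjusted p = 0.0466 and limma adjusted p = 0.990. Leaving out single libraries moved the difference of Kdm5b between -0.21 and -0.13 and its unadjusted p between 0.0189 and 0.217, and without the 3 libraries low in Th it was -0.13 (unadjusted p = 0.139). Hdac1 read 308 and 260.3 in Setd7 defeat, with a log2 difference of 0.35 ± 0.16 SE (unadjusted p = 0.0506, limma adjusted p = 0.990). This rested on few libraries: it was 0.17 without Setd7 defeat replicate 1 and 0.53 without replicate 2, and 0.35 without the 3 libraries low in Th (unadjusted p = 0.0737). Hdac3 read 2191 and 2108 in Setd7 defeat, both above every GFP defeat library.

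Limma called 0 of the 10 genes after defeat, as it did 0% of all genes, edgeR called 0 and DESeq2 called 0, against 0.0338% of all genes. At unadjusted p under 0.05 limma listed 1, Kdm5b, against 4.85% of all genes, and groups did not overlap for 2, Hdac3 and Kdm5b, against 14.1% of all genes. All 3 demethylases had lower and all 3 class I deacetylases higher fitted levels, with log2 medians of -0.10 and 0.16. The baseline is the GFP defeat libraries, so this does not by itself show that Setd7 reversed an effect of defeat. Over the 10 genes 5 were higher, with a median of -0.02, while 50.8% of all genes were higher. Meningeal fibroblast markers, which would come with tissue of the brain surface, were higher in 9 of 9, with a sum of 16938 normalized counts in Setd7 defeat replicate 1 and 4564 in replicate 2, against 3654 to 4762 in GFP defeat. MHC class II genes were higher in 4 of 4 (median 2.51), with sums of 1056 to 1689 against 174 to 348, microglia markers in 8 of 8 (median 0.25), with 10642 to 14154 against 9545 to 11281, and GABA neuron markers in 7 of 7 (median 0.32), with 45144 to 47208 against 33932 to 49838. Thalamus markers were lower in 7 of 7 (median -0.40), with 13380 to 15056 against 13705 to 27677. The part of these lists in the values of Kdm5b, Hdac1 and Hdac3 was not tested. The 95% interval of Hdac1 went beyond 1.5-fold, and those of the other 9 stayed within it.

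Defeat in Setd7 mice gave small differences, in the 10 genes as over all genes, whose median absolute log2 difference was 0.0951 here and 0.119 to 0.128 in the 3 comparisons above. The 10 log2 differences ran from -0.07 for Kdm5b to 0.07 for Hdac3, with 4 higher (48% of all genes were higher), 6 lower and a median of -0.02. The smallest unadjusted p were 0.367 for Kdm5b (-0.07 ± 0.08 SE) and 0.383 for Hdac3 (0.07 ± 0.08 SE). Limma called 0 of the 10, edgeR 0 and DESeq2 0, beside 0%, 0% and 0.0394% of all genes, and 0 of the 10 had an unadjusted p under 0.05, against 2.59% of all genes. The groups of every one of the 10 overlapped, while 9.14% of all genes had groups that did not. All 10 intervals stayed within 1.5-fold, with 2 Setd7 defeat libraries behind them.

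**Figure D4:**
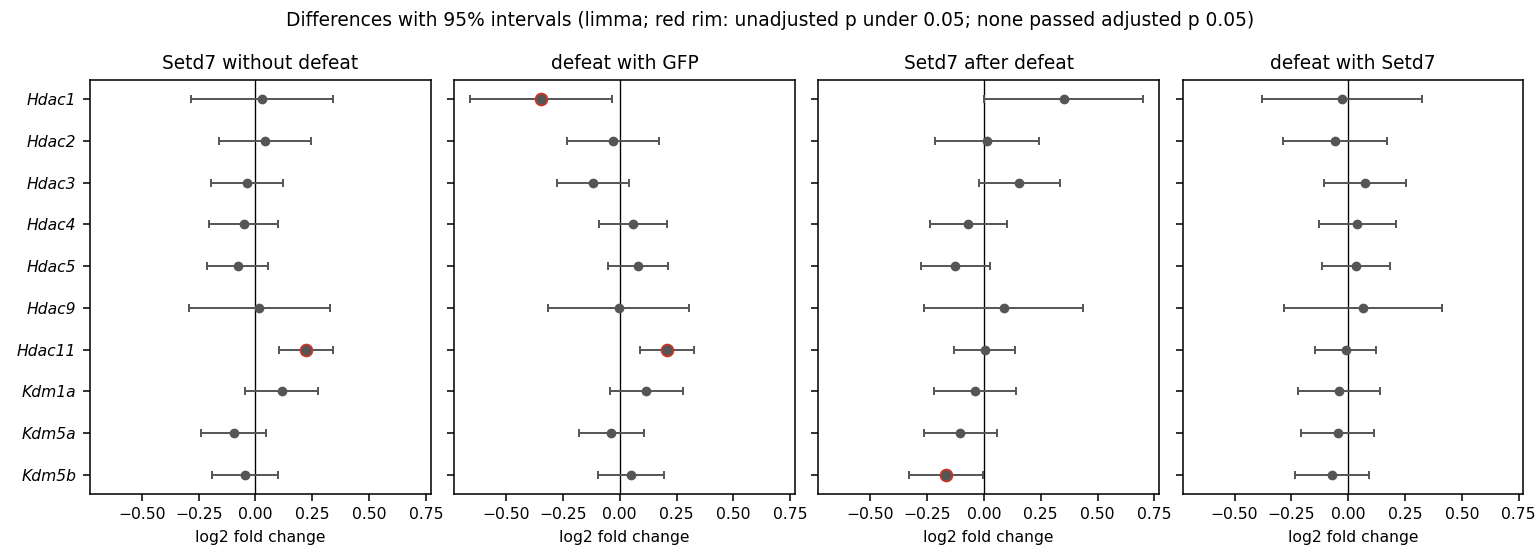
Fitted log2 differences of the 10 genes in the 4 comparisons between pairs of groups, with 95% intervals from limma and red rims where the unadjusted p was under 0.05. Hdac11 lies at 0.22 and 0.21 in the 2 comparisons that use the GFP control libraries, and near 0 in the other 2.

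The difference between the effects of defeat with Setd7 and with GFP, an interaction, addresses whether Setd7 altered the response to defeat. For Hdac11 it was -0.22 ± 0.08 SE on the log2 scale, with unadjusted p = 0.0202, limma adjusted p = 0.942, edgeR adjusted p = 0.962 and DESeq2 adjusted p = 0.649. It also uses the 3 GFP control libraries, and without the 3 libraries low in Th it was -0.11 (unadjusted p = 0.313). Next came Hdac3, with 0.19 ± 0.11 SE (unadjusted p = 0.106; 0.25 without the 3 libraries). Limma called 0 of the 10, edgeR 0 and DESeq2 0, beside 0%, 0% and 0.00563% of all genes, and 1 of the 10, Hdac11, had an unadjusted p under 0.05, against 4.96% of all genes. By this test a different response to defeat was not shown for any of the 10.

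Averaged over defeat, Setd7 against GFP gave Hdac11 a log2 difference of 0.11 ± 0.04 SE (unadjusted p = 0.0175, limma adjusted p = 0.686), and 0.08 without the 3 libraries low in Th (unadjusted p = 0.165). Hdac5, a class IIa enzyme known for its nuclear export in active neurons, had 7504, 7385 and 8019 normalized counts in GFP control, against 7817, 7888, 8430.1 and 8159 with defeat. Under Setd7 it read 7545, 7078, 7072 and 7222 without defeat, and 7825 and 6995 after it. Setd7 libraries tended to the lower end but overlapped with GFP libraries, and the log2 difference was -0.10 ± 0.05 SE (unadjusted p = 0.0467, limma adjusted p = 0.697), moving between -0.15 and -0.05 as single libraries were left out and standing at -0.09 without the 3 low in Th. Limma called 0 of the 10 and 0.00563% of all genes, which is Setd7 itself, edgeR called 0 of the 10 (0.00563% of all genes) and DESeq2 0 (0.0427% of all genes with an adjusted p), while 2 of the 10 had an unadjusted p under 0.05, against 7.12% of all genes. Averaged over virus, defeat gave Hdac11 a log2 difference of 0.10 ± 0.04 SE (unadjusted p = 0.0317, limma adjusted p = 0.922) and Hdac1 -0.19 ± 0.11 SE (unadjusted p = 0.110, limma adjusted p = 0.930). Without the 3 libraries these were 0.05 (unadjusted p = 0.403) and -0.30 (unadjusted p = 0.0622). Limma, edgeR and DESeq2 each called 0 of the 10 there, beside 0%, 0% and 0.0451% of all genes, and 1 of the 10 had an unadjusted p under 0.05, against 5.18% of all genes. All 10 overlapped between defeat and no defeat, while 0.0845% of all genes did not. Between the sexes limma, edgeR and DESeq2 each called 0 of the 10, beside 0.062%, 0.0563% and 0.0957% of all genes, and 0 had an unadjusted p under 0.05, against 3.87% of all genes. Kdm5b (-0.08 ± 0.05 SE, female minus male, unadjusted p = 0.109) and Hdac2 (0.12 ± 0.07 SE, unadjusted p = 0.115) had the smallest p.

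Among the 6 libraries that received the Setd7 virus, the level of Setd7 itself ran from 28587 to 158681 normalized counts, while Hdac11 ran from 10392 to 10855. The library lowest in Setd7, Setd7 control replicate 4, had 10781 of Hdac11, the highest of its group, though that group spanned only 10573 to 10781. This library also stood apart in tissue content. Its MHC class II sum was 15526, against 138 to 251 in the others of its group, and its microglia sum was 23234, against 9036 to 12794. The remaining genes varied without separating the groups. Hdac2, the partner of Hdac1 in CoREST and NuRD, read 1323 to 1855 normalized counts over the 13 libraries, and its group means ran from 1571 ± 182 (SD, n = 4) in GFP defeat to 1649 ± 164 (SD, n = 4) in Setd7 control. Hdac4, which binds MEF2 factors, read 3306 to 3997, with group means from 3459 ± 92.5 (SD, n = 4) in Setd7 control to 3737 ± 271 (SD, n = 4) in GFP defeat. Hdac9, another MEF2-binding enzyme, had the widest range beside its level after Hdac1, from 1957 to 3091, both ends falling in GFP defeat, with group means of 2371 to 2481. Kdm5a, a demethylase first found as a partner of the retinoblastoma protein, read 2651 to 3199, with its highest value in GFP control replicate 1 and group means from 2709 ± 80.7 (SD, n = 2) in Setd7 defeat to 2982 ± 188 (SD, n = 3) in GFP control. The coefficient of variation over all 13 libraries was 15.1% for Hdac1, 13.4% for Hdac9, 7.12% for Hdac11 and between 5.50% and 8.37% for the other 7.

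The complexes and targets around these enzymes were listed as 81 further genes, of which 80 could be tested. Without defeat, Setd7 gave 33 of the 80 a higher and 47 a lower fitted level, with a log2 median of -0.03, and for defeat with GFP the split was 29 and 51, again with a median of -0.03, while 51.4% and 49.6% of all genes were higher. In those comparisons limma, edgeR and DESeq2 each called 0 of the 80 at adjusted p under 0.05, while 5 and 12 had an unadjusted p under 0.05 by limma, against 8.01% and 9.25% of all genes. The MEF2 factors held back by Hdac4, Hdac5 and Hdac9 were lower in 3 of 3 in both. Mef2c, which shapes synapse number in neurons, read 2027 ± 706 (SD, n = 3) normalized counts in GFP control, against 1069 ± 431 (SD, n = 4) with defeat and 1061 ± 145 (SD, n = 4) with Setd7 (log2 differences -0.84 ± 0.27 SE for Setd7, limma adjusted p = 0.547, and -0.91 ± 0.27 SE for defeat, limma adjusted p = 0.397). Mef2c was highest, at 2691 and 2107, in GFP control replicates 3 and 2, the libraries high in Tcf7l2. Without the 3 libraries low in Th its differences were -0.41 and -0.75, each from 1 GFP control library. Of 9 genes of the CoREST complex, in which Kdm1a, Hdac1 and Hdac2 work, 3 were higher with Setd7 without defeat and 1 with defeat in GFP mice. Of 12 NuRD genes 6 and 7 were higher, with Chd5, its neuronal remodeller, at 11334 ± 315 (SD, n = 3) normalized counts in GFP control, against 12860.0 ± 693 (SD, n = 4) with defeat (log2 difference 0.20 ± 0.06 SE, unadjusted p = 0.00523, limma adjusted p = 0.397; 0.11 without the 3 libraries). Of 13 Sin3 genes 8 and 7 were higher, and Sap30l, a subunit that binds DNA, had a log2 difference of 0.29 ± 0.09 SE with defeat in GFP mice (limma adjusted p = 0.423) and -0.28 ± 0.10 SE with Setd7 after defeat (limma adjusted p = 0.990), which were 0.42 and -0.27 without the 3 libraries. Both Sap30l differences use the GFP defeat libraries and are not independent. Of 5 NCoR and SMRT genes, the partners of Hdac3, 1 and 2 were higher.

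Of 11 other deacetylases 5 were higher in each of these comparisons. Hdac10, a class IIb enzyme that deacetylates polyamines, read 249, 253 and 268 normalized counts in the GFP control libraries, against 216, 151, 199 and 161 with defeat, without overlap (log2 difference -0.52 ± 0.17 SE, unadjusted p = 0.0107, limma adjusted p = 0.423; -0.55 without the 3 libraries low in Th). Sirt2, abundant in oligodendrocytes, had a log2 difference of 0.21 ± 0.09 SE with Setd7 without defeat (unadjusted p = 0.0282, limma adjusted p = 0.589; 0.18 without the 3 libraries), where the oligodendrocyte markers were higher in 10 of 11. Of 4 other demethylases of lysine 4 of histone H3, 0 and 1 were higher, of 13 demethylases of other histone lysines 3 and 2, and of 10 histone acetyltransferases 7 and 4. After defeat, Setd7 gave 40 of the 80 genes a higher and 40 a lower level (50.8% of all genes were higher), and limma, edgeR and DESeq2 each called 0, with 4 at unadjusted p under 0.05 by limma, against 4.85% of all genes.

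Genes whose levels followed those of a member most closely across the 13 libraries were found by Pearson correlation over 13966 genes, as a description, since points share libraries, depth and tissue content. For Hdac11 they were Magee2 (r = 0.93), Rac3 (r = 0.90) and Dkk3 (r = 0.90), and for Hdac9 Slc25a24 (r = 0.94), Ptprn2 (r = 0.92) and Ctnnd2 (r = 0.91). For Kdm5b they were Dcaf5 (r = 0.92), Zc3h7b (r = 0.92) and Pitpnm3 (r = 0.90), for Hdac5 Cox7a2 (r = 0.93) led, and for Kdm1a Dedd (r = 0.91) led. The closest gene of Hdac1, Carmil3, reached r = 0.85. These are the highest r out of 13966 genes over 13 libraries, so their size follows in part from the search, and none was tested. The median r over all genes compared was 0.04 for Hdac11 and -0.02 for Hdac1. In the annotation of the earlier mouse build, exons of Hdac11 share 594 of 3849 bases and exons of Hdac4 share 3536 of 15813 bases with genes on the opposite strand that are not analysed here. Without knowing whether reads were counted by strand, their reads cannot be told apart from those of Hdac11 and Hdac4.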

How the data were processed

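Per the labels' protocols, total RNA was purified with RNeasy Micro columns and libraries were made with a TruSeq RiboZero kit. Per the submitters' processing notes, Bowtie2, GRCm39, featureCounts and DESeq2 were used, without versions. Whether reads were counted by strand is not given in the sources used here. The deposited table, made by the authors, holds signal: read counts scaled by DESeq2 size factors, for 26264 genes and 13 libraries. Dividing by the smallest step of a library gave whole reads for 100% of the 341432 values, within 0.01.

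Genes were tested when at least 2 libraries reached 10 normalized counts (17755 kept, 8509 dropped). In R 4.3.3, limma 3.58.1 with a mean-variance trend was fitted to log2(normalized count + 1), so fold changes are on that scale. It had 4 group means and a term for sex, was two-sided, and used Benjamini-Hochberg adjustment over all tested genes with a threshold of 0.05. The prior degrees of freedom were 4.638. Recovered reads were tested with edgeR 4.0.16 and DESeq2 1.42.0. The limma fit was tested on simulated data. Counts of members called are given beside the same share of all genes. Replicates differed by more than sampling noise, with a chi-square of 16.2 to 51.5 per degree of freedom, so each library counts as 1.

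Differences are printed for members with unadjusted p under 0.05, or for the 2 smallest p where fewer passed, and of each related list up to 2 genes are named. The members and lists were chosen with earlier results of these data known. Transcript lengths and overlaps come from GENCODE vM21 on GRCm38, the build before that of the table, and promoters from RefSeq with chromosome 18 left out. Near copies were sought at 95% identity over at least 300 bases.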

Additional observations from a re-analysis of the deposited data

How the results depend on the processing

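No paired analysis was possible because the labels give library numbers that are not shared between groups. The count of the 10 genes at limma adjusted p under 0.05 was 0 in the 8 comparisons with all libraries and with each library left out, and DESeq2 gave 1, Hdac11, in the comparison of Setd7 without defeat and 1 in that of defeat with GFP. DESeq2 was not run with libraries left out. The count at unadjusted p under 0.05 moved more. In Setd7 without defeat (1) it was 0 without the 3 libraries low in Th. For defeat with GFP (2) it was 1 with the compared groups alone, with the oligodendrocyte covariate and without the 3 libraries. For Setd7 after defeat (1) it was 2 with a pseudocount of 0.5, with a filter of 30 normalized counts in 4 libraries and with DESeq2, and 0 with the compared groups alone, with each of the dopamine neuron, oligodendrocyte and thalamus covariates and without the 3 libraries. The interaction (1) gave 0 without the 3 libraries. Setd7 averaged over defeat (2) gave 1 with robust fitting, TMM scaling, edgeR, the thalamus covariate and without the 3 libraries, and 0 with the dopamine neuron covariate. Defeat averaged over virus (1) gave 0 with the dopamine neuron covariate and without the 3 libraries. Sex (0) gave 1 with the oligodendrocyte and thalamus covariates. Leaving out single libraries gave 1 to 1 in Setd7 without defeat, 1 to 2 in defeat with GFP, 0 to 2 for Setd7 after defeat, 0 to 0 for defeat with Setd7, 0 to 1 for the interaction, 1 to 3 for Setd7 averaged over defeat, 0 to 1 for defeat averaged over virus and 0 to 1 for sex. Beyond the settings that leave out libraries, the cause was not tested. The fold changes printed by the naming rule kept their sign under every setting run for them. The thalamus covariate and a fit without the 2 Setd7 defeat libraries were chosen after seeing the data, and the latter gave 0 calls in both comparisons with GFP control.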
